A study of Mus musculus with 8 samples.

Results

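Genes of the neuroendocrine lineage were followed in 8 Myc-CaP prostate tumors. The set held 9 genes, Chga, Chgb, Scg2, Syp, Eno2, Ncam1, Insm1, Sox2 and Rest, taken by gene name from the 38115 genes of each count table, and all 9 were listed. Myc-CaP is a mouse prostate cancer cell line from a mouse whose prostate expresses a MYC transgene under a probasin promoter. Cells were grafted into the anterior prostate of FVB males that were intact or had been castrated beforehand. The 4 groups were androgen sensitive (AS) primary, AS metastatic, castrate resistant (CR) primary and CR metastatic, with 2 tumors in each, and their names below carry no pairing. The labels call the metastases matched without naming the primary tumor, and the age of the mice, the host of each graft and the site of each metastasis are not given in the sources used here. All tumors descend from 2 sublines of 1 cell line, and each bulk sample also holds host stroma. The sample identifiers of AS and CR tumors fall in 2 separate ranges, so handling and phenotype cannot be told apart. A matched metastasis and primary tumor may come from the same animal, the tests treat the 8 tumors as independent, and p-values between phenotypes may then be too small. Separate animals are not stated, so p-values measure only the spread between these samples.

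Neuroendocrine cells are rare cells of the prostate epithelium that release peptides and amines from dense-core granules. Prostate cancers that escape androgen withdrawal can take on neuroendocrine features, lose dependence on androgen and express granins, synaptophysin and neural adhesion molecules. Rest is the repressor of this program: it binds neuronal and granule genes in non-neuronal cells and silences them with corepressor complexes, and its loss is one route to neuroendocrine differentiation. Whether the tumors expressed the lineage genes was examined first, and the levels were then compared by phenotype and by tumor type.

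The granins are the secretory products that define the lineage clinically, and their promoters are shown here for a motif that all 3 hold. The sequences are RefSeq promoter windows on GRCm38.p6, from 250 bases before the start site to 50 bases after it, and 6 of the 9 genes matched the table. Capitals mark the core of the cyclic AMP response element, TGACGT on either strand, and the palindrome TGACGTCA holds both matches over the same bases. Chga lies at chr12:102554691-102554990 on the plus strand, Chgb at chr2:132781392-132781691 on the plus strand and Scg2 at chr1:79439977-79440276 on the minus strand.
Chga: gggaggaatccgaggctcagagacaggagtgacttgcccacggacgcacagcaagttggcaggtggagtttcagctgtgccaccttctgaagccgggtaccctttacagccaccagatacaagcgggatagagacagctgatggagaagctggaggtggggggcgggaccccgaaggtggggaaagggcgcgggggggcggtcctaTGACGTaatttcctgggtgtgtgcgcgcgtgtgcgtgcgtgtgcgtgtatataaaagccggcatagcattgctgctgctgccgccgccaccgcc
Chgb: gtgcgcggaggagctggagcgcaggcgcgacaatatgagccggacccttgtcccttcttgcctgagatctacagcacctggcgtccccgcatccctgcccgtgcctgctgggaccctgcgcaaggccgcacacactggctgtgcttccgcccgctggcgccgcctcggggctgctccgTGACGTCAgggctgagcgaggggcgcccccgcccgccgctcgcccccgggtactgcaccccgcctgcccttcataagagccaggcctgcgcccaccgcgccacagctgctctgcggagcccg
Scg2: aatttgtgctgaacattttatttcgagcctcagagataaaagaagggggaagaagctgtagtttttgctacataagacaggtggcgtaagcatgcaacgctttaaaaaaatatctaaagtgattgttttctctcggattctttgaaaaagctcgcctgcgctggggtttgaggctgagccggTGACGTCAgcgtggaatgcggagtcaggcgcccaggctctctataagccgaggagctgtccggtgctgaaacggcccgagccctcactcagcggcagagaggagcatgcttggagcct
In all 3 granin promoters the core lay close to the start site, from base -44 in Chga, -72 in Chgb and -68 in Scg2. The windows of Syp, Eno2 and Sox2 held no such match, and 7.51% of 32851 promoter windows of the same length did. The recognition element of Rest has a left part, CAGCACC, and a right part, GGACAG, with 2 bases between them, searched on both strands, and this arrangement was in none of the 6 windows (0) and in 0.0365% of all windows. Scg2 held both parts with no base between them, on the strand opposite to the gene at bases -13 to -1, an arrangement searched only after it was seen and found in 0.00913% of windows. Chgb held the left part alone, from base -179, as did 7.14% of windows. The right part was in 22.2% of windows. These matches describe letters only, and binding was not measured.

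Of the 9 genes, 2 were expressed in every tumor. Expression was taken as 1 CPM (1 count in 1000000) or more, scaled to the effective library size after TMM (trimmed mean of M-values) normalization. Rest and Ncam1 passed this level in 8 of 8 tumors, Chga in 2, and the other 6 genes in 0. Chgb, Scg2, Insm1 and Sox2 had at most 7 counts in any tumor, Syp at most 26 and Eno2 at most 70. Total counts per tumor lay between 20905806 and 91886163, and 3 of the 4 CR tumors were shallower than every AS tumor. A count of 0 allows a level of up to 3 counts, which was 0.0294 CPM in the deepest library, AS metastatic 2, and 0.148 CPM in CR primary 2. These limits and the intervals below cover counting error only. CR metastatic 2, the shallowest library, and AS metastatic 2 had at least 1 count in 27438 and 27673 genes, against 22232 to 23989 in the other 6.

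Levels were compared between genes as CPM divided by exonic length in kilobases (RPKM). In order of the median over tumors, Rest had 9.50 RPKM, Ncam1 1.33, Chga 0.160, Eno2 0.105, Syp 0.0318, Chgb 0.0164 and Sox2 0.00695, and Scg2 and Insm1 had a median of 0. The ranges of Rest, Ncam1 and Chga did not overlap one another. From Chga downward each gene's range overlapped that of the next, so the order of neighbours was not larger than the spread between tumors. Insm1, with at most 0.00949 RPKM from at most 3 counts, lay below the lowest tumor of Syp, 0.0140 RPKM, and of Eno2, 0.0363 RPKM. Rest stood above 86.8% of protein-coding genes by its median and Ncam1 above 58.1%. Chga stood above 43.0%, Eno2 above 40.6% and Syp above 33.6%.

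**Figure D1:**
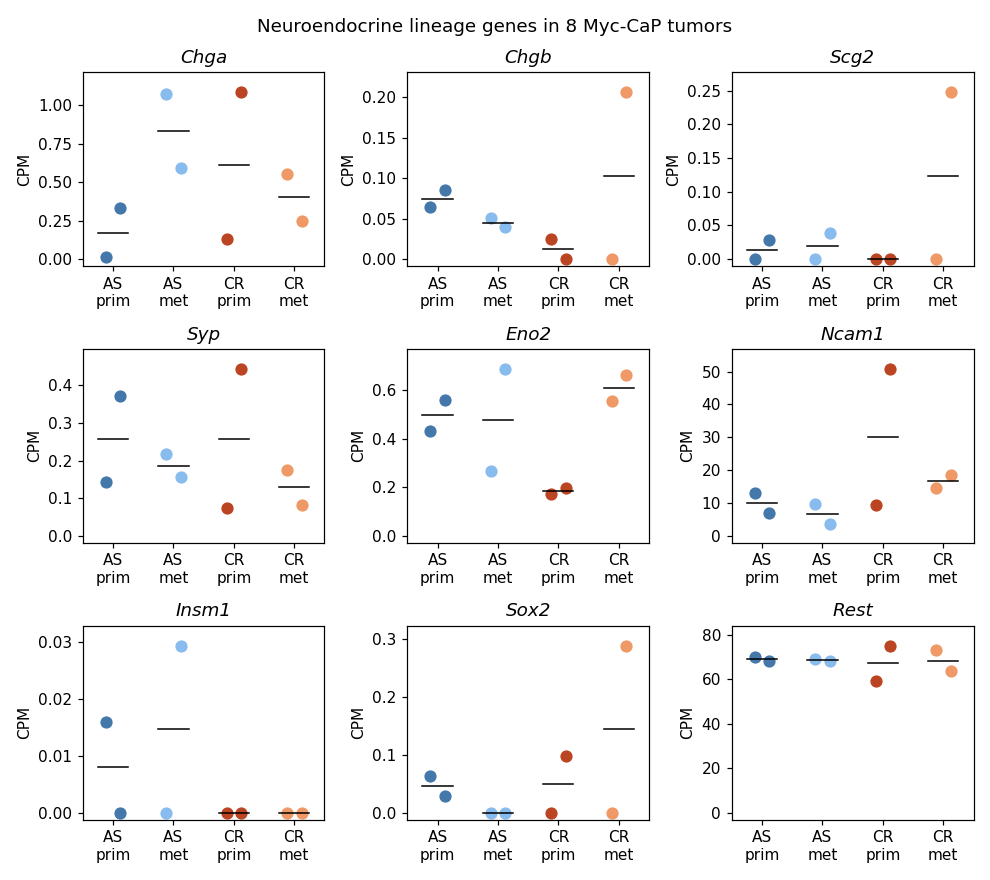
CPM (linear axes, a separate scale for each gene) of the 9 genes in the 2 tumors of each group, with a line at the group mean. Rest lies between 59.4 and 75.1 CPM in every tumor, Ncam1 reaches 50.9 CPM in CR primary 2, and 6 genes stay under 1 CPM throughout.

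**Figure D2:**
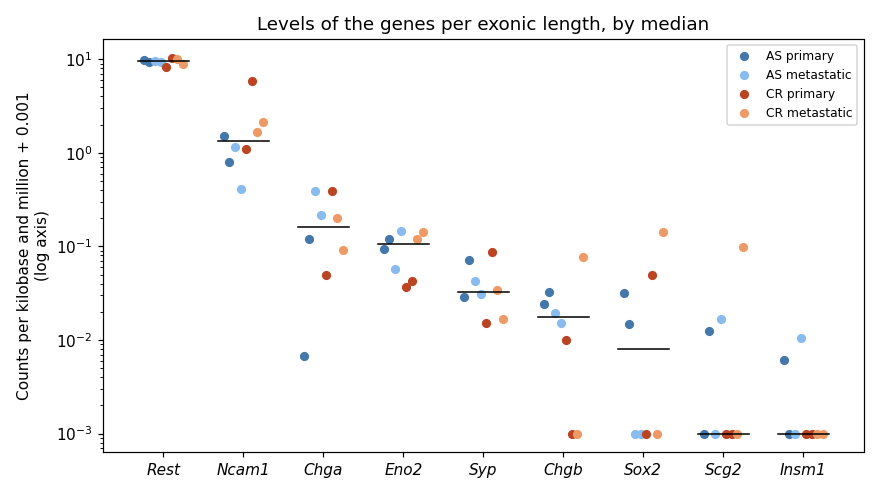
RPKM plus 0.001 on a log axis for each tumor, genes ordered by their median (line) and points colored by group. Rest is separated from Ncam1, and Ncam1 from Chga, while each lower gene overlaps the next in order. Scg2, Sox2, Insm1 and Chgb include tumors at 0.

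Rest, the repressor of the lineage, was the most highly expressed of the genes and the least variable. It lies on chr5:77265491-77286432. Its level was 70.1 and 68.1 CPM in the AS primary tumors, 69.0 and 68.1 CPM in the AS metastases, 59.4 and 75.1 CPM in the CR primary tumors, and 73.0 and 63.6 CPM in the CR metastases. Both the lowest and the highest tumor were CR primary tumors, and the phenotypes overlapped. The mean was 68.3 ± 4.98 CPM (SD, n = 8), and the highest tumor was 1.26 times the lowest. Rest did not pass the test between phenotypes, with a log2 fold change of -0.02 (95% interval -0.33 to 0.29, adjusted p = 0.931, edgeR). Between metastatic and primary tumors the log2 fold change was 0.01 (95% interval -0.31 to 0.32, adjusted p = 0.995, edgeR). The 2 tested genes nearest to Rest in pattern were AC134426.1 and Slk, each with a root mean square difference of 0.045 in centred log2(CPM + 1) over 8 tumors, against a median of 0.30 over all tested genes. AC134426.1 had at most 0.345 CPM, where this scale is flat for any gene, and Slk had 115 to 150 CPM.

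The 18 listed partners of Rest and proteins that set its level were expressed in every tumor. They include the corepressors Rcor1, Rcor2 and Rcor3, the Sin3 scaffolds, the histone deacetylases Hdac1 and Hdac2, and the demethylase Kdm1a. None of the 18 (0) passed the test in either comparison, where 11.4% of 17797 tested genes did between phenotypes and 0% between tumor types. Their median log2 fold change was 0.10 between phenotypes, against -0.01 over all tested genes, and -0.03 between tumor types, against -0.03. The smallest p-values between phenotypes were those of Kdm1a, with a log2 fold change of 0.44 (SE 0.14, adjusted p = 0.0692), and Sin3b, with -0.47 (SE 0.15, adjusted p = 0.0760, edgeR). Between tumor types they were those of Hdac1, with 0.29 (SE 0.17), and Sin3b, with -0.25 (SE 0.15).

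Ncam1, which encodes the neural cell adhesion molecule CD56, was the only 1 of the 8 lineage markers expressed in every tumor, and its highest tumor was 14.3 times its lowest. It lies on chr9:49502136-49798925. It had 13.2 and 6.97 CPM in the AS primary tumors, 9.87 and 3.55 CPM in the AS metastases, 9.42 and 50.9 CPM in the CR primary tumors, and 14.6 and 18.6 CPM in the CR metastases. CR primary 2 was far above the rest, CR primary 1 lay within the AS range, and a CR tumor was above an AS tumor in 14 of 16 comparisons. The mean was 23.4 ± 18.7 CPM in CR and 8.40 ± 4.12 CPM in AS tumors (SD, n = 4 each), a ratio of 2.78. The log2 fold change was 1.44 (SE 0.51, 95% interval 0.28 to 2.60, unadjusted p = 0.0208, adjusted p = 0.105, edgeR), which did not pass the threshold. An exact permutation test that took the 8 tumors as independent gave p = 0.0857, two-sided, where 4 against 4 allow 0.0286 at the smallest. DESeq2 on the same counts gave a log2 fold change of 1.48 with an adjusted p = 0.0213, and called 20% of all genes. Without CR primary 2 the CR mean was 14.2 ± 4.60 CPM (n = 3), the log2 fold change 0.79 and the adjusted p 0.355 (edgeR). Without CR primary 1 the log2 fold change was 1.72 and the adjusted p 0.0177 (edgeR). Between metastatic and primary tumors the log2 fold change of Ncam1 was -0.72 (95% interval -1.87 to 0.43, adjusted p = 0.781, edgeR), with -0.59 within AS and -0.85 within CR tumors. It was -0.04 without CR primary 2, and between -1.12 and -0.52 without any other single tumor.

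The level of Ncam1 in AS and CR tumors was set beside markers of other cells that carry it. Fewer cells of a type and less RNA per cell cannot be told apart in bulk tumors. Of 8 markers of Schwann cells and nerve, 2 were expressed in every tumor, Mbp and Pmp22. The defining genes Sox10 and Prph had at most 10 counts in any tumor. The summed level of the list was 15.2 to 22.6 CPM in AS and 15.7 to 41.4 CPM in CR tumors, and CR primary 2, with the most Ncam1, had the lowest sum of the CR tumors. Mbp, a myelin gene, was higher in CR tumors (log2 fold change 1.47, SE 0.37, adjusted p = 0.0359, edgeR). The summed level of 8 muscle markers was 244 to 276 CPM in AS and 115 to 211 CPM in CR tumors, most of it Eno3. Without Eno3 it was 3.92 to 21.1 CPM in AS and 3.30 to 23.3 CPM in CR tumors, with CR primary 2 the lowest of all. The part of these cells in the level of Ncam1 was not tested. An annotated antisense gene, Gm11149, shares 4.81% of the exonic bases of Ncam1 and had at most 30 counts. The 2 tested genes nearest to Ncam1 in pattern were Nrn1, with a root mean square difference of 0.340, and Egfr, with 0.378, against a median of 1.0 over all tested genes.

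Chga, the granin chromogranin A, was the most counted of the classical granule markers, yet it reached 1 CPM in only 2 tumors. It lies on chr12:102554969-102565028. It had 0.0160 and 0.329 CPM in the AS primary tumors, from 1 and 23 counts, and 1.07 and 0.588 CPM in the AS metastases, from 84 and 60 counts. In CR tumors it had 0.134 and 1.08 CPM in the primary tumors, from 11 and 22 counts, and 0.554 and 0.248 CPM in the metastases, from 19 and 6 counts. The highest AS and CR tumors were alike, and the groups overlapped. The exact 95% binomial interval of the highest tumor, CR primary 2, was 0.679 to 1.64 CPM, and that of the lowest, AS primary 1, was 0.000406 to 0.0893 CPM, so the difference among tumors was larger than counting error. The means of 0.505 ± 0.425 CPM in CR and 0.501 ± 0.446 CPM in AS tumors (SD, n = 4 each) were indistinguishable. The log2 fold change between phenotypes was 0.26 (95% interval -1.95 to 2.47, adjusted p = 0.890), and that between tumor types 0.95 (95% interval -1.28 to 3.19, adjusted p = 0.851, edgeR).

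Chga was also compared between tumor types within each phenotype, 2 tumors against 2. Within AS tumors the metastatic minus primary log2 difference was 2.23 (SE 1.23, unadjusted p = 0.107, adjusted p = 0.9995, edgeR), which did not pass the threshold. Within CR tumors it was -0.45 (SE 1.26). The interaction was -2.68 (SE 1.75, adjusted p = 0.956, edgeR), so the phenotypes were not shown to differ. With 1 tumor left out it ran from -5.97 without AS primary 2 to -0.60 without CR primary 2, and the tumor type value from 0.27 without AS primary 1 to 2.0 without CR primary 2, none past the threshold. Of the other granins, Chgb, chromogranin B, had between 0 and 6 counts per tumor and Scg2, secretogranin II, between 0 and 6. Chgb was at 0 in CR primary 2 and CR metastatic 1, and Scg2 was at 0 in 5 of 8 tumors. CR metastatic 2, the shallowest library, held the highest level of both, 0.207 CPM of Chgb from 5 counts and 0.248 CPM of Scg2 from 6 counts. In the other 3 CR tumors Chgb had 0 to 2 counts and Scg2 had 0. The part of the wider spread of counted genes in that library was not tested. At this depth neither was distinguishable between groups, and no fold change is given for them.

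Eno2, the neuronal enolase long used as a serum marker, was counted in every tumor at less than 1 CPM. It had 0.433 and 0.558 CPM in the AS primary tumors, 0.267 and 0.686 CPM in the AS metastases, 0.171 and 0.197 CPM in the CR primary tumors, and 0.554 and 0.661 CPM in the CR metastases. The lowest levels were in the CR primary tumors. The exact 95% binomial interval of CR primary 2, 0.0537 to 0.505 CPM, covered the levels of AS metastatic 1 and AS primary 1. Within CR tumors the metastatic minus primary log2 difference was 1.73 (SE 0.67, unadjusted p = 0.0329, adjusted p = 0.622, edgeR), and within AS tumors it was -0.05 (SE 0.59). The interaction of 1.78 (SE 0.89, unadjusted p = 0.0814, adjusted p = 0.956, edgeR) did not pass the threshold. The CR primary values came from 14 and 4 counts. Over all tumors Eno2 had a log2 fold change of -0.49 between phenotypes (95% interval -1.67 to 0.69, adjusted p = 0.580) and 0.74 between tumor types (95% interval -0.44 to 1.92, adjusted p = 0.782, edgeR).

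Syp encodes synaptophysin, a membrane protein of small synaptic-like vesicles. It had 0.144 and 0.372 CPM in the AS primary tumors, 0.216 and 0.157 CPM in the AS metastases, 0.0732 and 0.444 CPM in the CR primary tumors, and 0.175 and 0.0827 CPM in the CR metastases. The lowest and the highest tumor were both CR primary tumors. Its log2 fold change was -0.34 between phenotypes (95% interval -1.84 to 1.17, adjusted p = 0.780) and -0.59 between tumor types (95% interval -2.09 to 0.91, adjusted p = 0.860, edgeR). An annotated antisense gene, Gm14703, shares 16.8% of the exonic bases of Syp and had up to 18 counts. The strand setting of the counting is not stated, so reads over the shared bases cannot be assigned to either gene.

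The transcription factors Insm1 and Sox2 were at the limit of detection. Insm1, a zinc-finger factor that drives endocrine and neuroendocrine differentiation, had 3 counts in AS metastatic 2, 1 count in AS primary 1 and 0 in the other 6 tumors. Sox2, a stem-cell factor linked to lineage plasticity, had 7 counts in CR metastatic 2, 4 and 2 counts in the AS primary tumors, 2 counts in CR primary 2 and 0 in the other 4 tumors. Its highest level, 0.289 CPM, was again in CR metastatic 2. With every gene of at least 1 count kept in the fit, adjusted p-values of Chgb, Scg2, Insm1 and Sox2 lay between 0.622 and 0.921 between phenotypes and between 0.859 and 0.970 between tumor types (edgeR). Differences in these genes were not detectable at this depth.

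Between phenotypes, 5 of the 9 genes could be tested after the filter on low counts, Chga, Syp, Eno2, Ncam1 and Rest. None (0) passed an adjusted p of 0.05 in edgeR's quasi-likelihood test with tumor type as a term, 1 had an unadjusted p under 0.05, where 28.2% of tested genes did, and DESeq2 called 1, Ncam1 in both cases. Over all 17797 tested genes edgeR called 11.4% and DESeq2 20%. Between metastatic and primary tumors, 0 of the 5 genes were called by edgeR or DESeq2 and 0 had an unadjusted p under 0.05. Over all tested genes edgeR called 0% between tumor types, with 6.59% at an unadjusted p under 0.05, and DESeq2 called 0.18%. The interaction of tumor type and phenotype was called for 0 of the 5 genes and for 0% of all genes.

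**Figure D3:**
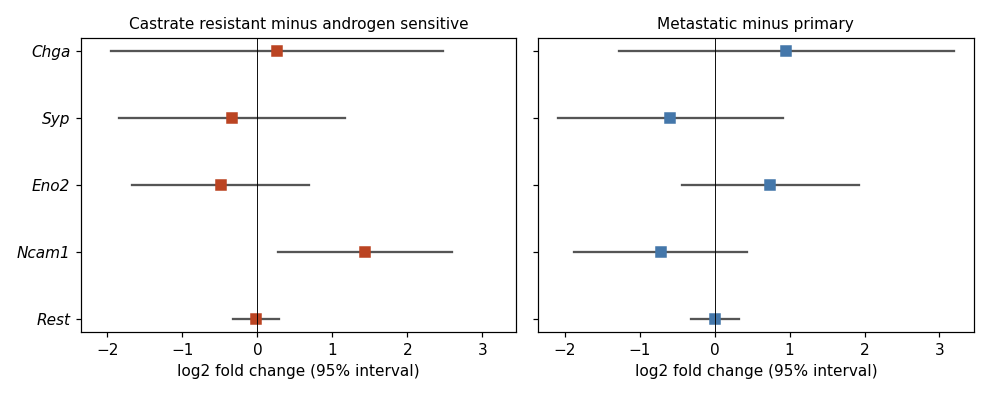
Log2 fold change (square) with its 95% interval (line) of the 5 tested genes, CR minus AS tumors on the left and metastatic minus primary tumors on the right. Rest has the narrowest intervals, around 0, and the interval of Ncam1 between phenotypes, 0.28 to 2.60, is the only 1 of the 10 that leaves out 0.

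Most other genes of the lineage did not reach 1 CPM in more than 1 tumor. Of 76 further genes in 4 lists, of granule and vesicle genes, lineage transcription factors, peptide and amine genes and neuronal targets of Rest, 31 could be tested. Together with the 9 genes above, 11 of 85 were expressed in every tumor, 6 in some, and 68 reached 1 CPM in at most 1 tumor. Among 18 lineage transcription factors, Neurod1 and Pou3f2 had at most 11 counts in any tumor. Hes6, a repressor of the Hes family, was the only factor of the list expressed in every tumor. Of the list none (0 of 4 tested) was called in either comparison, where 11.4% of all tested genes were between phenotypes and 0% between tumor types. The list median was 1.32 between phenotypes, against -0.01 over all tested genes, and 0.56 between tumor types, against -0.03. A gene of few counts can pass the low-count filter through the tumors where it is high, so these medians are not read as differences. The smallest p-value between phenotypes was that of Prox1 (log2 fold change 1.88, SE 1.09, adjusted p = 0.295, edgeR). Between tumor types it was that of Onecut2 (log2 fold change 1.95, adjusted p = 0.734, edgeR), with Hes6 at -0.16 in the lower direction. Prox1 and Onecut2 were both highest in CR metastatic 2, at 1.16 CPM from 28 counts each. Prox1 had 0.0127 to 0.394 CPM in the other tumors. The part of the wider spread of counted genes in CR metastatic 2 was not tested.

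Of 20 other granule and vesicle genes, 3 were expressed in every tumor. None (0 of 9 tested) was called in either comparison, where 11.4% of all tested genes were between phenotypes and 0% between tumor types. Cpe, carboxypeptidase E, which trims peptide hormones in granules, had a median of 208 RPKM and stood above 99.5% of protein-coding genes. It had 339 to 579.5 CPM in CR and 504 to 822 CPM in AS tumors, with a log2 fold change of -0.57 (SE 0.23, adjusted p = 0.134). In the higher direction the smallest p-value was that of Syn1, a synaptic vesicle phosphoprotein (log2 fold change 0.72, adjusted p = 0.365, edgeR). Between tumor types these were Stx1a, a fusion syntaxin, at 0.46 (adjusted p = 0.763), and Rab3a, a vesicle GTPase, at -0.42 (adjusted p = 0.733). The prohormone convertases Pcsk1 and Pcsk2 had at most 16 counts in any tumor. The list median was -0.36 between phenotypes, against -0.01 over all tested genes, and 0.34 between tumor types, against -0.03.

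Of 18 neuronal genes that Rest is known to repress, 3 were expressed in every tumor, the neurotrophin Bdnf, the vesicle priming factor Unc13a and the receptor subunit Chrnb2. None (0 of 11 tested) was called in either comparison, where 11.4% of all tested genes were between phenotypes and 0% between tumor types. The list median was 0.51 between phenotypes, against -0.01 over all tested genes, and 0.39 between tumor types, against -0.03. Stmn2 had the smallest p in the higher direction between phenotypes (log2 fold change 1.91, SE 0.94, adjusted p = 0.218), with 1.73 CPM in CR primary 1 and 0 counts in CR primary 2. Unc13a had the smallest in the lower direction between phenotypes (-0.46, adjusted p = 0.143) and between tumor types (-0.43, unadjusted p = 0.0487, adjusted p = 0.729), and Scn2a the smallest in the higher direction between tumor types (1.30, adjusted p = 0.744, edgeR).

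Of 20 peptide and amine genes 7 passed the low-count filter. Nts passed it through the CR tumors alone and is given by its values only. Of the other 6, Calca and Tph1 rose in CR tumors, where 5.66% of all tested genes were higher in CR, and 0 were called lower. Both had every CR tumor above every AS tumor, as did 8.71% of tested genes. The median of the 6 was 1.66 between phenotypes, against -0.01 over all tested genes, and 0.20 between tumor types, against -0.03. Between tumor types 0 genes were called. Calca encodes calcitonin and the calcitonin gene-related peptide. It had 4.79, 4.03, 2.32 and 3.22 CPM in the AS tumors, and 597 and 229 CPM in the CR primary tumors and 630 and 26.2 CPM in the CR metastases. The lowest CR tumor, CR metastatic 2, was above every AS tumor, and the CR tumors themselves spread widely. The mean was 371 ± 293 CPM in CR and 3.59 ± 1.06 CPM in AS tumors (SD, n = 4 each), with a log2 fold change of 6.72 (SE 0.92, adjusted p = 0.00599, edgeR). The call held without any single tumor, with adjusted p-values between 0.00141 and 0.0293.

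Nts, the neurotensin precursor, rested on few reads, 1 to 4 counts per AS tumor and 8 to 14 per CR tumor. Tph1, the rate-limiting enzyme of peripheral serotonin synthesis, had 0.0961 to 0.216 CPM in AS and 0.289 to 6.15 CPM in CR tumors, with CR metastatic 1 highest. Its log2 fold change was 3.38 (SE 0.85, adjusted p = 0.0377) and 1.82 without that tumor (adjusted p = 0.158, edgeR). The call was lost without any 1 tumor other than CR primary 1 and CR metastatic 2, with adjusted p-values of 0.0810 to 0.158 (edgeR). Genes named next were chosen after their values were seen. Npy, neuropeptide Y, had 0.0320 to 0.739 CPM in AS and 0.372 to 5.81 CPM in CR tumors (log2 fold change 3.01, SE 1.07, adjusted p = 0.103, edgeR). Uchl1, a neuronal deubiquitinase used as a neuroendocrine stain, was at 82.5 to 140 CPM in every tumor (log2 fold change 0.13, SE 0.19, adjusted p = 0.697, edgeR). Peptide hormones such as Gast, Sst and Vip had at most 2 counts in any tumor.

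**Figure D4:**
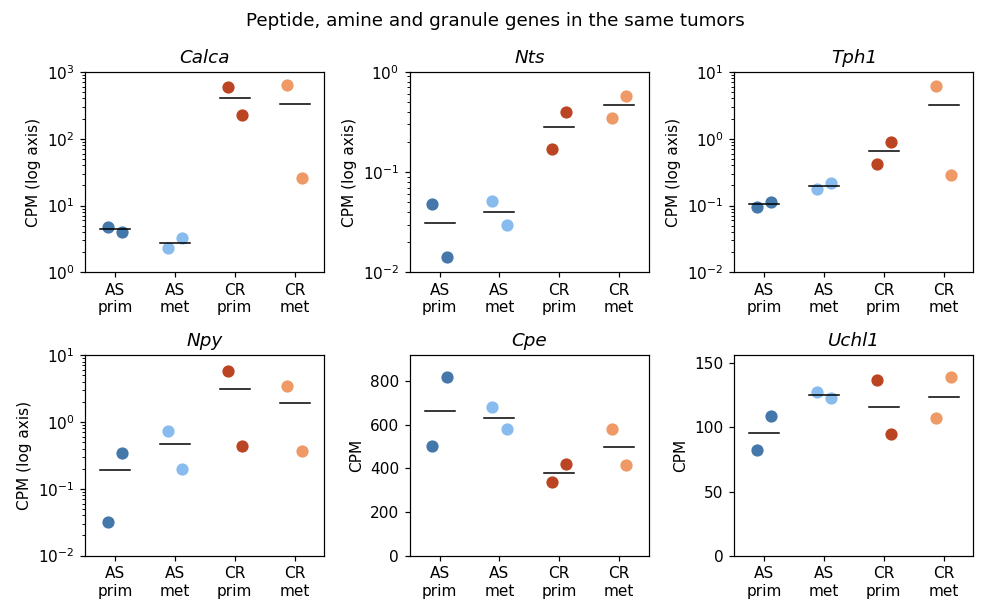
CPM of 4 peptide and amine genes (log axes) and of Cpe and Uchl1 (linear axes from 0) in the 2 tumors of each group, with a line at the group mean. All 4 CR tumors lie above all 4 AS tumors in Calca and Tph1, as in 8.71% of tested genes. Phenotypes overlap in Npy, and Cpe and Uchl1 exceed 82 CPM in every tumor. Nts passed the low-count filter through the CR tumors alone and is shown by its values only.

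The tumors were checked against markers of the tissue. Of the luminal epithelial markers, Krt8, Foxa1 and Hoxb13 were expressed in every tumor. Epcam had at most 22 counts in any tumor, Cdh1 at most 38 and Krt18 at most 41. TMM factors lay between 0.815 in CR primary 2 and 1.16 in CR metastatic 2.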

How the data were processed

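RNA was sequenced from 8 tumors. The authors depleted ribosomal RNA, prepared stranded libraries, mapped paired-end reads to mm10 (GRCm38) with Bowtie, kept reads with a single location and up to 2 mismatches, and deposited raw counts per gene, without normalization. The submitters' processing notes name CASAVA 1.8.2 and TopHat2 2.0 instead. The counter, its annotation and its strand setting are not given in the sources used here. Genes with near-identical copies lose reads at this step.

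Counts were tested in R 4.3.3 with edgeR 4.0.16 across 17797 genes that passed filterByExpr, using TMM factors and the quasi-likelihood test with phenotype and tumor type as terms, and Benjamini-Hochberg adjustment at 0.05. A model of 4 group means gave the interaction. CPM used the effective library size, and RPKM also divides by exonic length in GENCODE M21. Permutation tests used log2(CPM + 1). DESeq2 1.42.0, RLE factors, other filters and terms, single phenotypes and tumor types, each tumor left out, and the 4 possible pairings were alternatives. The fits were tested on simulated data.

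The genes and lists were chosen with earlier results of these data known. Beside the 9 genes, the text names the called genes of each list, or else, for either direction, that with the smallest p-value, and for each gene expressed in every tumor the 2 genes nearest in pattern. Total counts ranged from 20905806 to 91886163, so counting error matters mainly for genes of a few reads. Some genes of the marker lists are not reported here.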

Additional observations from a re-analysis of the deposited data

Results flagged for a closer look

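Ncam1 in CR primary 2 stood apart from the other primary tumors. It had 50.9 CPM, against 6.97 to 13.2 CPM in the other 3 primary tumors, and its gap to the nearest of them was 0.857 of the whole range. Of 20 groups of 4 tumors examined for the 5 tested genes, this was the only 1 with such a gap, and chance gives about 1 in 20.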

How the results depend on the processing

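Between phenotypes 2026 genes were called. The count was 3098 with every gene of at least 1 count, 3563 with DESeq2, 4 in primary tumors alone and 974 in metastatic tumors alone. Leaving out any 1 of the 8 tumors moved it by over 1.5 times, from 433 without AS metastatic 1 to 3994 without CR primary 1. Between tumor types 0 genes were called, 292 with every gene of at least 1 count and 32 with DESeq2, and 0 to 14 with 1 tumor left out, the 14 without CR primary 1. The interaction was called for 0 genes, 217 with every gene of at least 1 count and 3 with DESeq2, and 0 to 76 with 1 tumor left out, the 76 without CR primary 2. Since the primary tumor of each metastasis is not given, a replicate block was fitted for each of 4 possible pairings between tumor types, and gave 0 called genes each time and 888 to 1264 at an unadjusted p under 0.05. With no pairing given, whether matched tumors deviate together was not examined. Where a tumor was left out, the lone tumor of its group was assumed to vary like the others.

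The log2 fold change of Ncam1 between phenotypes stayed above 0 in all 15 alternatives (0.79 to 1.81). It passed the threshold with every gene of at least 1 count (1.33, adjusted p = 6.04e-06, edgeR), with DESeq2 and without CR primary 1. In the fit with every gene of at least 1 count the SE of Ncam1 was 0.25, against 0.51 in the main fit. That of Rest was 0.23, against 0.14. As errors differ between these fits, their p-values are not directly comparable. Some values changed sign. Between phenotypes Rest had 0.01 with RLE factors and with DESeq2, 0.02 with the filter at 1 CPM and in metastases alone, and -0.08 to 0.03 with 1 tumor left out. Chga had -0.06 with phenotype as the only term, -0.99 in metastases alone and -0.77 to 0.74 with 1 tumor left out, Eno2 had 0.36 in metastases alone, and Syp had -1.01 to 0.06 with 1 tumor left out. Between tumor types Rest had -0.03 with every gene of at least 1 count and -0.06 to 0.09 with 1 tumor left out, Eno2 had -0.02 in AS tumors alone and Chga -0.46 in CR tumors alone. In the interaction Rest had -0.04 with every gene of at least 1 count, and with 1 tumor left out Rest had -0.13 to 0.25, Syp -1.25 to 1.35 and Ncam1 -1.03 to 1.44. The causes were not tested. With 1 tumor left out, values between tumor types ran from -0.92 to -0.03 for Syp and from 0.43 to 1.17 for Eno2. The values without Nts or Eno3 were chosen after seeing the data. Of 315 values of single genes under alternatives, 267 kept their direction and side of the threshold. Calca and Tph1 kept their direction between phenotypes in all alternatives that tested them (like Chga, Syp and Eno2, Tph1 did not pass the filter at 1 CPM) and missed the threshold in primary or metastatic tumors alone (2 against 2), and Tph1 passed between tumor types with every gene of at least 1 count (1.72, adjusted p = 0.0301, edgeR).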

Other observations

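Among 40 tested markers of other cells, 5 genes (12.5%, against 11.4% of all tested genes) differed between phenotypes at an adjusted p under 0.05 in edgeR's quasi-likelihood test. Krt8, a luminal keratin, had 419.8 ± 208 CPM in CR and 119 ± 57.1 CPM in AS tumors (SD, n = 4 each) (log2 fold change 1.85, SE 0.50, adjusted p = 0.0464). Mbp was also higher in CR tumors, as given above. Trp63, a basal cell factor, was lower in CR tumors, with 1.07 ± 0.587 against 3.65 ± 0.279 CPM (log2 fold change -1.80, SE 0.43, adjusted p = 0.0321). Eno3, the muscle enolase, was lower in CR tumors, with 144 ± 32.5 against 252 ± 11.7 CPM (log2 fold change -0.82, SE 0.18, adjusted p = 0.0245), and lay at a median of 123 RPKM where Eno2 lay at 0.105 RPKM. Ttr, transthyretin, was lower in CR tumors, with 4.86 ± 2.25 against 13.0 ± 9.29 CPM (log2 fold change -1.32, SE 0.36, adjusted p = 0.0495). None of the 5 (0) was called between tumor types.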
